A study of Mus musculus with 8 samples.

Results

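The interleukin-1 (IL-1) family genes described here are 8 mouse genes: the cytokines Il1a, Il1b and Il18, the soluble inhibitors Il1rn and Il18bp, the signalling receptor chains Il1r1 and Il1rap, and the decoy receptor Il1r2. They were taken by name and found through the Entrez gene number that each row of the array table carries. The rule uses names and no measured value, and the set was chosen with earlier results of these data known. All 8 were found among 24011 named genes, and no filter on low values was applied. The question was whether macrophages change the expression of these genes within 1 h of meeting hepcidin, an iron-regulating hormone made by the liver, whose receptor, ferroportin, carries iron out of cells and is removed from the surface once bound.

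The data are 8 Affymetrix whole-transcript arrays, each of primary macrophages (BMDM) grown for 7 days from the bone marrow of wild-type mice aged 8 to 10 weeks with L cell-conditioned medium as the source of M-CSF. They were then seeded at 150000 cells a well and used the following day. The Hepcidin group had 4 arrays of cells given hepcidin at 10 µg/ml for 1 h, and the PBS group had 4 arrays of cells given PBS. All 8 samples were kept in the M-CSF medium, numbers 1 to 4 recur in both groups, and the labels do not say whether a number stands for an animal, a culture or a day, so the p-values rest on a spread between samples that could be technical. A pair below means the Hepcidin and the PBS array with the same number.

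IL-1 alpha and IL-1 beta bind IL-1 receptor type 1, which recruits the accessory chain IL-1RAP and signals through MyD88 and IRAK kinases to NF-kB. IL-1 beta and IL-18 are made as inactive precursors that caspase-1 cuts in inflammasomes. The IL-1 receptor antagonist, made from Il1rn, occupies the receptor without signalling, the type 2 receptor binds IL-1 and does not signal, and IL-18 binding protein captures IL-18. In resting macrophages Il1b mRNA is known to be scarce and to rise steeply after bacterial products.

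Il1a and Il1b are neighbouring protein-coding genes on mouse chromosome 2. Their RefSeq promoter windows (GRCm38.p6, 250 bases before to 50 after the start of the gene, 5′ to 3′ on the strand of the gene) are shown because these neighbours had the largest spread over the arrays and the largest change with hepcidin among the 8 genes. Il1a lies on the minus strand at chr2:129309923-129310222, and Il1b on the minus strand at chr2:129371090-129371389. Capitals mark matches, on either strand, to the TATA box letters TATAAA, the AP-1 letters TGANTCA and the PU.1 core letters GAGGAAG.
Il1a: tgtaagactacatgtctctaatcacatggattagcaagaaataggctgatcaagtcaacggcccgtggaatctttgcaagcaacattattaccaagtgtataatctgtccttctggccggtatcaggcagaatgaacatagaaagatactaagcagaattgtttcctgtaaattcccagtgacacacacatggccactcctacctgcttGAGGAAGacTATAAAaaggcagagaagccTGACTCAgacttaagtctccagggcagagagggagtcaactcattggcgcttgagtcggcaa
Il1b: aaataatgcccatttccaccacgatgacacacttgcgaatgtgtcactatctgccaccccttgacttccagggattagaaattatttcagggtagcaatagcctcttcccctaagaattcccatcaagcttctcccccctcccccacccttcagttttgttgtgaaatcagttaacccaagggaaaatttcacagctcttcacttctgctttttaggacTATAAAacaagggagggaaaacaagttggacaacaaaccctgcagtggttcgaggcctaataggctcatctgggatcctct
Each of the 2 windows has a TATAAA, which begins 32 bases before the start in Il1a and 31 bases before it in Il1b, and 13.6% of 32851 windows of all genes hold this motif. The Il1a window also holds TGACTCA, with the AP-1 letters present in 7.81% of all windows, and the PU.1 core letters, present in 13.6%. The NF-kB consensus was found in 1 of the 11 windows of the 8 genes, a window of Il1r1, against 8.46% of all windows. It had replaced a looser motif whose counts had been seen, and some windows of Il1rn overlap, so this count only describes. These matches describe letters and are not measured binding sites.

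The array levels are log2 values, and the level of a gene with little or no mRNA is set by background. As a rough guide to it, 1091 olfactory receptor genes had a median of 2.93 and a 95th percentile of 4.77 in the PBS group. Their maximum was 10.40, so not every gene of this set read at background. Probe sets differ in how well they bind, so levels of different genes were not compared. Macrophage markers were bright, with the mean level of 8 of 10 listed markers between 8.34 for Mertk and 13.13 for Cd68. Mast cell and dendritic cell markers lay between 2.64 and 6.36, and neutrophil and precursor markers between 3.52 and 9.70. Array medians ran from 4.87 to 4.95.

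No gene of the 8 passed the test for a change with hepcidin, in limma with p-values adjusted over all 24011 genes and a threshold of 0.05. Over all genes 0% passed. At an unadjusted p under 0.05 there was again no member, against 686 genes or 2.86% of all genes. With the replicate number as a block, the counts were again 0 of 8 at either threshold, where 0.00416% of all genes passed (the chemokine gene Cxcl2) and 4.91% had an unadjusted p under 0.05. They were 0 of 8 again with the number as a random block, where 0.0208% of all genes passed (Tnf, Nfkbiz, Nfkbie, Nfkbia and Mir146) and 4.97% had an unadjusted p under 0.05. The groups did not overlap in 0 of 8 genes, against 1.88% of all genes. No member was higher in 4 of 4 pairs, as 5.69% of all genes were, or lower in 4 of 4 pairs, as 5.92% were. Of the 8 log2 changes, 5 were above 0 and 3 below, where 50.4% of all genes were above 0, with a median of 0.02 beside a median of 0.00 over all genes.

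**Figure D1:**
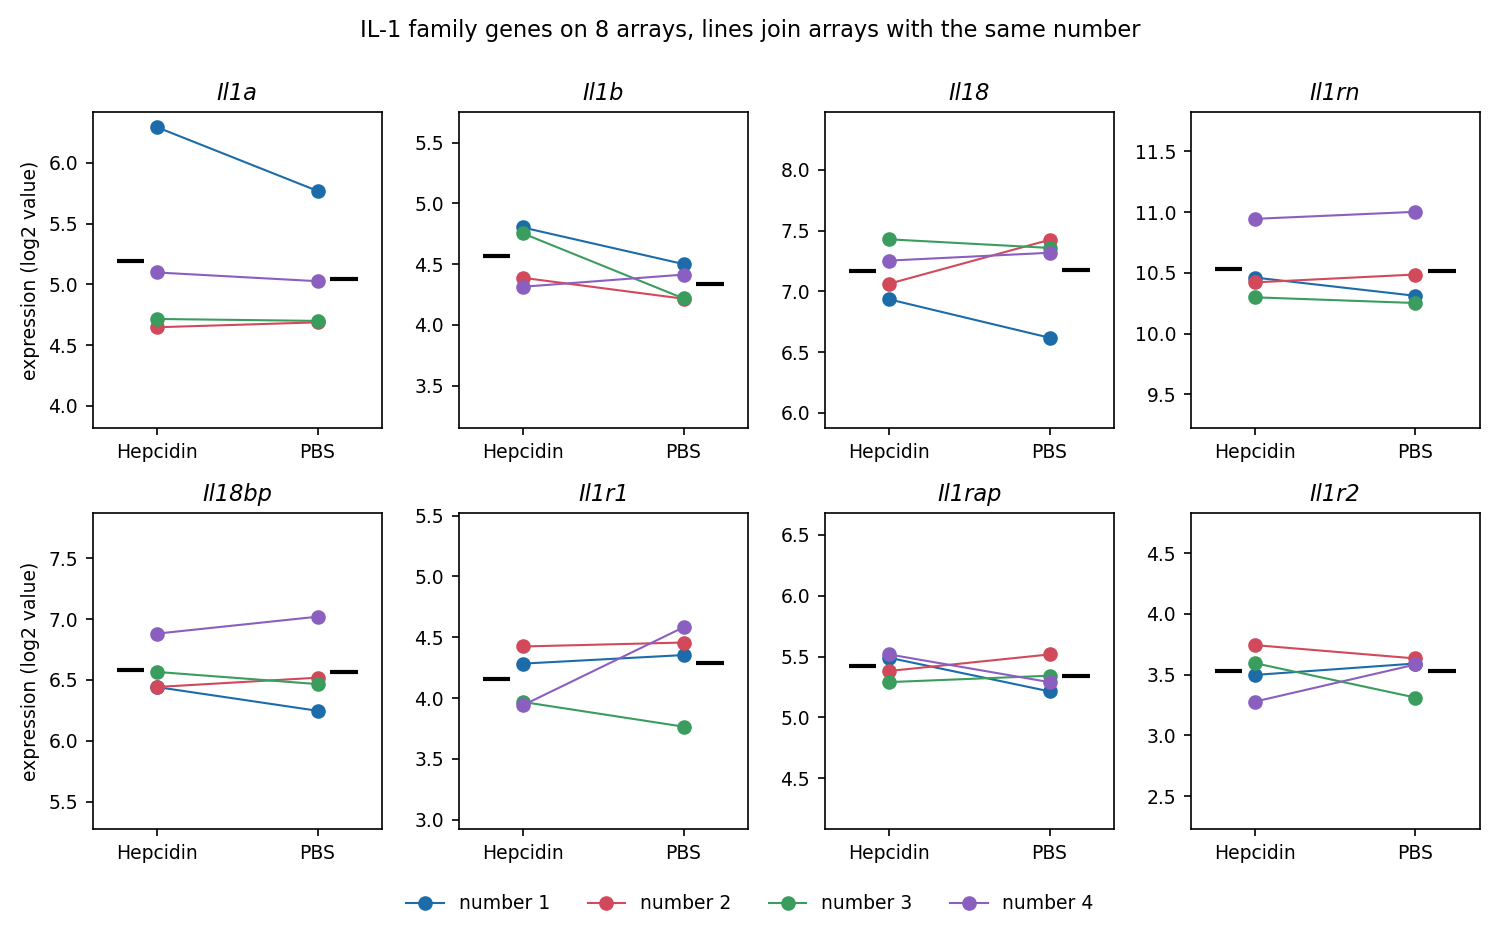
Log2 value of each gene (vertical axes, all spanning the same number of log2 units) on the Hepcidin (left) and PBS (right) arrays. Points are arrays, coloured lines join arrays with the same number and short black bars are group means. The groups overlap in all 8 genes, and Il1a on number 1 lies above the other numbers in both groups.

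Among the cytokines, Il1b (Entrez gene 16176), which encodes IL-1 beta, had the largest change of the 8 genes. It read 4.80, 4.39, 4.75 and 4.31 on Hepcidin arrays 1 to 4, against 4.50, 4.22, 4.22 and 4.41 on PBS arrays 1 to 4. The Hepcidin array was the higher one in pairs 1 to 3 and the lower one in pair 4, and the groups overlapped. The log2 change was 0.23 ± 0.13 (SE), a ratio of 1.17 with a 95% confidence interval from 0.958 to 1.43, and in limma the unadjusted p was 0.110, or 1.00 once adjusted. With the replicate block in limma the unadjusted p was 0.0676 and the adjusted p 0.999. All 8 values lay close to background, since the PBS mean of 4.34 was above 91.4% of the olfactory receptor genes, and ratios are compressed in that range. The unadjusted p in limma was 0.0390 without Hepcidin array 4 and 0.282 without Hepcidin array 1.

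Tnf, the gene of the cytokine TNF and a target of the same NF-kB pathway, was set beside Il1b. It read 11.60, 11.37, 11.86 and 11.85 on Hepcidin arrays, against 10.49, 10.36, 10.09 and 10.62 on PBS arrays, with no overlap. The difference between the log2 change of Tnf and that of Il1b was 1.05, and it was above 0 in 4 of 4 pairs, at 0.81, 0.83, 1.24 and 1.33. The adjusted p of Tnf in limma was 0.0762 without a block and 0.0169 with the number as a random block. Tnf was chosen because it was known to differ on these arrays, so the difference between the changes is a description. An exact permutation test over the 70 splits of the arrays, which ignored the pairs, gave a two-sided p of 0.0286. That is the smallest p these splits can give, and because Tnf was chosen in this way it supports nothing further. The PBS mean of Tnf was above 99.9% of the olfactory receptor genes.

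Il1a (16175), which encodes IL-1 alpha, read 6.29, 4.65, 4.72 and 5.10 with hepcidin, against 5.77, 4.69, 4.70 and 5.03 with PBS. Number 1 was the highest in each group, and within the other 3 pairs the arrays lay close together. The pair differences were 0.52, -0.04, 0.02 and 0.07, so the mean log2 change of 0.14 ± 0.36 (SE) came mostly from pair 1. Without both arrays numbered 1 the change was 0.02. The PBS mean of Il1a was above 96.5% of the olfactory receptor genes. All arrays numbered 2 and 3 read below 4.77, the 95th percentile of those genes with PBS, and ratios are compressed in that range. The 95% interval of the ratio ran from 0.632 to 1.93 without the block and from 0.932 to 1.31 with it.

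Il18 (16173), which encodes IL-18, read 6.94, 7.06, 7.43 and 7.25 with hepcidin, against 6.62, 7.42, 7.36 and 7.32 with PBS. Pair 1 was higher with hepcidin by 0.32 and pair 2 lower by the log2 difference of -0.36, and the groups overlapped. The log2 change was -0.01 ± 0.18 (SE), with the sign turned to 0.0064 under median centring, and the 95% interval of the ratio was 0.751 to 1.31 without the block and 0.831 to 1.19 with it.

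The genes of the soluble inhibitors had changes near 0 and did not pass the test. Il1rn (16181) read 10.46, 10.42, 10.30 and 10.94 with hepcidin, against 10.31, 10.49, 10.25 and 11.00 with PBS. The log2 change was 0.02 ± 0.18 (SE) and the 95% interval of the ratio was 0.762 to 1.35, or 0.899 to 1.14 with the block. Il18bp (16068) read 6.44, 6.44, 6.57 and 6.88 with hepcidin, against 6.25, 6.52, 6.47 and 7.02 with PBS. Its log2 change was 0.02 ± 0.16 (SE), with a 95% interval of the ratio from 0.787 to 1.31, or 0.887 to 1.16 with the block. In each inhibitor gene number 4 was the highest in both groups.

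Of the receptor genes, Il1r1 and Il1r2 read low. Il1r1 (16177), the signalling chain, had 4.28, 4.42, 3.97 and 3.94 with hepcidin, against 4.35, 4.46, 3.76 and 4.58 with PBS. Its log2 change of -0.14 ± 0.18 (SE) rested mainly on pair 4, where the difference was -0.64, and pair 3 went the other way at 0.20. Without PBS array 3 its unadjusted p in limma was 0.0488, against 0.471 on all arrays. Il1rap (16180), the accessory chain shared with other family receptors, had 5.49, 5.38, 5.29 and 5.52 with hepcidin, against 5.21, 5.52, 5.34 and 5.29 with PBS. Its log2 change was 0.08 ± 0.09 (SE), and its whole range over the 8 arrays was 0.30. Il1r2 (16178), the decoy, had 3.50, 3.74, 3.60 and 3.28 with hepcidin, against 3.59, 3.63, 3.31 and 3.58 with PBS, a log2 change of -0.00 ± 0.12 (SE), whose sign turned under 3 other scalings (median centring, quantile normalization and cyclic loess). The PBS means of Il1r1 and Il1r2 were above 90.7% and 76.6% of the olfactory receptor genes, and that of Il1rap was above 97.7%. The 95% intervals of the ratio were 0.689 to 1.20 for Il1r1, 0.916 to 1.22 for Il1rap and 0.836 to 1.19 for Il1r2.

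**Figure D2:**
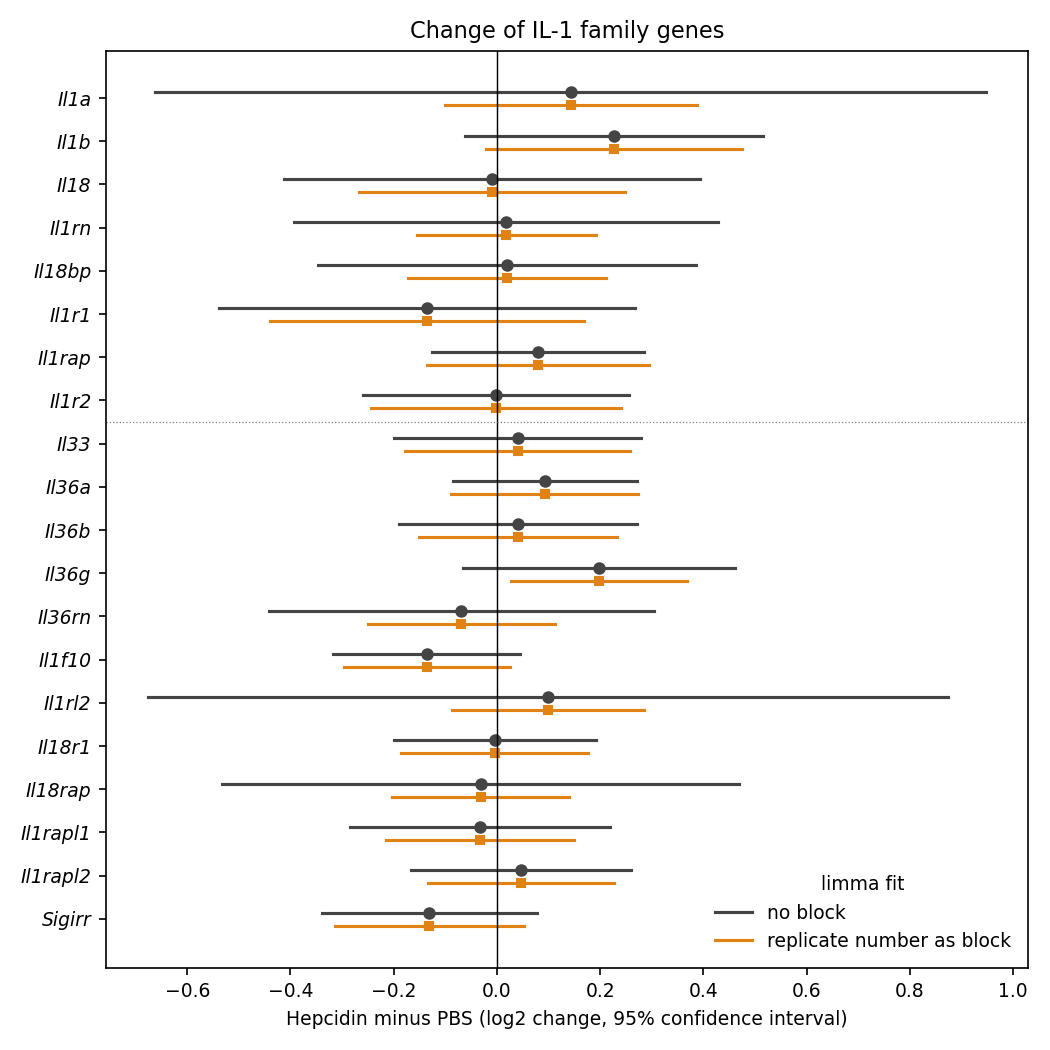
Log2 change, Hepcidin minus PBS (horizontal axis), of the 8 genes (above the dotted line) and of 12 other family genes (below it), with 95% confidence intervals from limma without a block (dark circles) and with the replicate number as a block (orange squares). Each dark interval includes 0. The block narrows the interval most for Il1a and Il1rl2, and with it the interval of Il36g lies above 0.

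Arrays with the same number resembled each other more than arrays of the same treatment did in several of these genes. An F test in limma asked for differences between the 4 numbers with the treatment in the fit. It passed for 2 of 8 genes, Il1a (adjusted p 0.00644) and Il1rn (0.0243), against 5.6% of all genes. Il18bp had an adjusted p of 0.0692, Il18 of 0.151 and Il1r1 of 0.284. Il1b, Il1r2 and Il1rap had adjusted p-values between 0.457 and 0.876. Il18bp passed in 3 alternatives, at 0.0104 among genes with a mean of 6 or more, 0.0222 among those at or above the median and 0.0317 with trend and robust variance, and Il18 in the first of them, at 0.0379. This test was chosen after the values had been seen, and without both arrays numbered 1 it passed for 0 of 8, with Il1rn at an adjusted p of 0.0639 and an unadjusted p of 0.000746, and Il1a at 0.189.

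Il1a averaged 6.03 on the arrays numbered 1 and 4.81 on the other 6, which ran from 4.65 to 5.10. That is a log2 difference of 1.22, or 2.33-fold, and the range of Il1a over the 8 arrays was wider than that of 99.2% of all genes. Its values on numbers 2 and 3 lay near background. Il18 went the other way, with 6.78 on number 1 and 7.31 on the others. On the same arrays the linear values of all 13 neutrophil and precursor markers were summed. The log2 of this sum was 9.71 with hepcidin and 9.76 with PBS on number 1, against 10.51 to 10.94 on the other 6 arrays. The F test, which asks for any difference between numbers, passed for 9 of the 13 markers, against 5.6% of all genes. For the 8 macrophage markers the log2 of the sum was 14.45 with hepcidin and 14.34 with PBS on number 1, against 14.54 to 14.71. The sum of the B cell list was also lower on number 1, at 7.62 with hepcidin and 7.57 with PBS, against 7.68 to 7.97. The endothelium list was higher there, in the same direction as Il1a, at 9.41 with hepcidin and 9.19 with PBS, against 8.92 to 9.10. The T and NK cell list had 10.81 and 10.82, at the upper edge of the others, 10.08 to 10.81. The brightest gene of that list had a mean level of 10.34, against a list median of 4.11, so the sum mostly describes that gene. In the lists of dendritic cells, mast cells and fibroblasts, number 1 overlapped the others. The part of these cells in the levels of Il1a and Il18 was not tested, and in whole cultures fewer cells of a type and less RNA per cell cannot be told apart.

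Il1rn averaged 10.97 on the arrays numbered 4 and 10.37 on the other 6, a ratio of 1.52, with both arrays above the range of the others, 10.25 to 10.49. Il18bp did the same with 6.95 and 6.45, a ratio of 1.42, and the others between 6.25 and 6.57. Over the 8 arrays the log2 values of these 2 inhibitor genes had a Pearson correlation of 0.905, the highest of the 28 pairs among the 8 genes. The next was 0.754 for Il1r1 and Il1r2, both near background, and the lowest was -0.741 for Il1a and Il18. These correlations describe 8 arrays that share 4 numbers.

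**Figure D3:**
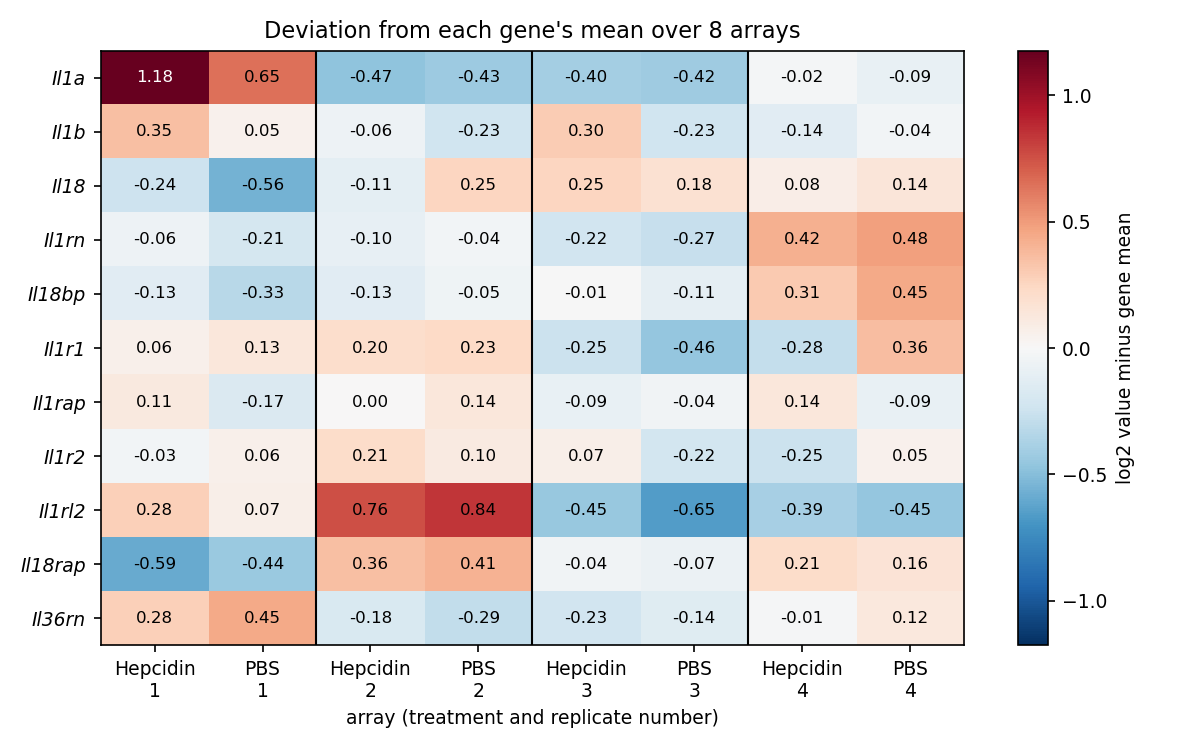
Log2 value of each array minus the mean of the gene over the 8 arrays (colour and printed value), arrays ordered by replicate number with Hepcidin left of PBS. The rows are the 8 genes and the 3 other family genes that passed the F test for the number. Il1a is high on both arrays numbered 1, Il1rn and Il18bp on both numbered 4, and Il1rl2 on both numbered 2.

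The genes whose log2 values followed those of a member most closely were searched by Pearson correlation over the 8 arrays, among genes whose mean level was 6 or more. For Il1a these were Ctsk (0.993), Arrdc4 (0.990), Plpp5 (0.984), Dach1 (0.984) and Gprc5b (0.983). All 5 were higher on number 1, by 0.32 for Ctsk to 1.34 for Gprc5b. For Il1rn they were Sik3 (0.988), Pcdh7 (0.976), Psmd12 (0.976), Pfkl (0.974) and Runx3 (0.972). For Il1b the correlations were lower, with 4833439L19Rik (0.945), Chmp7 (0.913), Lrrc8a (0.911), Vta1 (0.896) and Adprm (0.894). None of these 15 genes had an unadjusted p under 0.05 for hepcidin in limma, as 2.86% of all genes had, and the smallest was 0.343 for Chmp7. They were picked on the same arrays for following members that did not pass themselves, so this count shows nothing further.

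The remaining family ligands read near background. All 6 of them were measured, 4 under older symbols: Il33, the alarmin gene, the IL-36 agonist genes Il36a, Il36b and Il36g, the IL-36 receptor antagonist gene Il36rn and Il1f10, which encodes IL-38. Their mean levels lay between 3.17 for Il36g and 4.14 for Il1f10, and 0 of 6 passed for hepcidin in limma, with none at an unadjusted p under 0.05. Il36g was higher in 4 of 4 pairs, as 5.69% of all genes were. It read 3.37, 2.998, 3.37 and 3.35 with hepcidin, against 3.05, 2.84, 3.26 and 3.14 with PBS, and its PBS mean was above 56.9% of the olfactory receptor genes. Its log2 change was 0.20 ± 0.12 (SE), with an unadjusted p of 0.126 in limma, and of 0.0278 with the replicate block, where the adjusted p was 0.970. Il1f10 was lower in 4 of 4 pairs, as 5.92% of all genes were, with a log2 change of -0.14 ± 0.08 (SE). Il36rn differed between numbers (F test in limma, adjusted p 0.0496), reading 3.85 with hepcidin and 4.02 with PBS on number 1, against 3.28 to 3.70 on the other 6 arrays.

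Of the other 7 receptor genes on the list, 6 were measured and 0 passed for hepcidin in limma, with none at an unadjusted p under 0.05. The row of Il1rl1 was not named in the annotation used here. Il1rl2 is the IL-36 receptor gene and Il18rap encodes the accessory chain of the IL-18 receptor, and their PBS means were above 99.9% and 99.4% of the olfactory receptor genes. Il1rl2 read 7.71, 8.18, 6.98 and 7.03 with hepcidin, against 7.49, 8.26, 6.77 and 6.97 with PBS. It differed between numbers (F test in limma, adjusted p 0.00282), with both arrays numbered 2 above the others. Il18rap read 5.86, 6.81, 6.42 and 6.67 with hepcidin, against 6.02, 6.87, 6.39 and 6.61 with PBS. It too differed between numbers (F test in limma, adjusted p 0.0100), with both arrays numbered 1 the lowest. The log2 changes with hepcidin were 0.10 ± 0.35 and -0.03 ± 0.22 (SE). Il18r1, the IL-18 binding chain, had a log2 change of -0.00 ± 0.09 (SE) at a PBS level of 3.64, with the sign turned under the same 3 scalings as for Il1r2, and the inhibitory receptor gene Sigirr had one of -0.13 ± 0.09 (SE) at 4.97. Il1rapl1 and Il1rapl2, which are known mainly from neurons, read 2.99 and 3.09 with PBS.

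The list of genes for processing and release of IL-1 had 18 measured members of 18, and 0 passed for hepcidin in limma. At an unadjusted p under 0.05 there was 1 higher and 0 lower without the block, where 2.86% of all genes were called, and 3 higher and 0 lower with it, where 4.91% were. In this list 3 genes were higher in 4 of 4 pairs, as 5.69% of all genes were, and 1, Serpinb1a, was lower, as 5.92% were. The first was Nlrp3, the inflammasome sensor gene that also needs a priming signal, with 8.19, 8.20, 8.31 and 8.43 with hepcidin, against 7.68, 8.08, 7.90 and 8.14 with PBS. Each Hepcidin array lay above every PBS array, in 1 gene of this list and in 1.88% of all genes counting both directions. The log2 change was 0.34 ± 0.11 (SE), and limma put the unadjusted p at 0.0144 and the adjusted one at 1.00. Casp4, the sensor caspase of cytosolic lipopolysaccharide known in mice as caspase-11, had a log2 change of 0.23 ± 0.12 (SE) and was higher in 4 of 4 pairs. Mefv, the pyrin gene, had one of 0.28 ± 0.17 (SE), also higher in 4 of 4 pairs and at a PBS level of 4.23, and Nlrc4, an inflammasome sensor gene, one of 0.15 ± 0.12 (SE). Casp1, the protease that cuts pro-IL-1 beta, read 10.25, 10.12, 9.78 and 10.35 with hepcidin, against 10.44, 10.16, 9.71 and 10.39 with PBS, a log2 change of -0.05 ± 0.17 (SE). With the replicate block in limma, the 3 genes at an unadjusted p under 0.05 were Nlrp3 (0.00488), Mefv (0.00681) and Casp4 (0.0211). Their adjusted p-values in that fit ran from 0.784 to 0.966. The median change of the list was 0.02.

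Of 20 genes of IL-1 receptor signalling 19 were measured, and 0 passed for hepcidin in limma. At an unadjusted p under 0.05 there were 2 higher and 0 lower without the block, against 2.86% of all genes, and 3 higher and 0 lower with it, against 4.91%. Map3k8, the kinase TPL2 that links NF-kB1 to ERK, read 8.23, 8.06, 8.26 and 8.24 with hepcidin, against 8.05, 7.85, 7.66 and 7.79 with PBS. The groups did not overlap. The log2 change was 0.36 ± 0.10 (SE), and limma put the unadjusted p at 0.00432 and the adjusted one at 1.00. Tnip1, a partner of the deubiquitinase A20, read 9.11, 8.69, 8.71 and 8.68 with hepcidin, against 8.69, 8.35, 8.15 and 8.59 with PBS. It was higher in 4 of 4 pairs. The log2 change was 0.35 ± 0.14 (SE), with 0.0314 as its unadjusted p in limma, or 0.0895 without Hepcidin array 1, 0.0741 without PBS array 2 and 0.0932 without PBS array 3. In this list 3 genes were higher in 4 of 4 pairs (5.69% of all genes) and 2 were lower in 4 of 4 (5.92%), the TAK1-binding protein genes Tab2 and Tab3. Their log2 changes were -0.09 ± 0.07 and -0.14 ± 0.12 (SE), with unadjusted p-values of 0.210 and 0.288 in limma. The groups did not overlap in Map3k8 and, in the other direction, in Tab2, against 1.88% of all genes. Tab2, Tab3 and Serpinb1a were named after their values had been seen. Irak2, a kinase of the late receptor complex, had a log2 change of 0.21 ± 0.11 and Tifa, a TRAF6 adaptor gene, one of 0.12 ± 0.08 (SE). The adaptor gene Myd88 had a log2 change of -0.12 ± 0.18 (SE), with 2 of 4 pairs higher. With the replicate block in limma, the 3 genes at an unadjusted p under 0.05 were Map3k8 (0.00483), Tnip1 (0.00530) and Irak2 (0.0403). Their adjusted p-values in that fit ran from 0.784 to 0.990. The list had 10 members above 0 and 9 below, with a median change of 0.01.

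**Figure D4:**
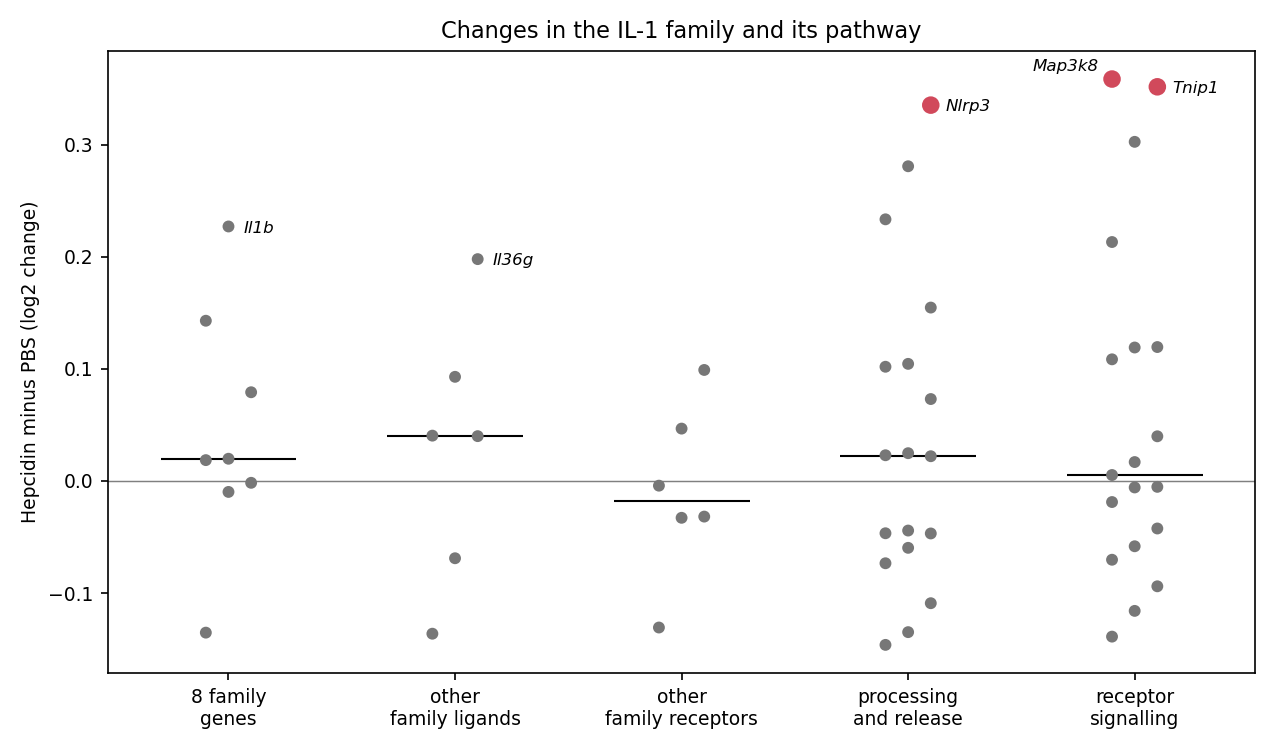
Log2 change, Hepcidin minus PBS (vertical axis), of each measured gene in the 8-gene family set and in 4 lists of related genes (horizontal axis). Large red points have an unadjusted p under 0.05 in limma, which are Nlrp3, Map3k8 and Tnip1, and black lines are list medians, between -0.02 and 0.04.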

How the data were processed

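Gene expression was compared between 4 Hepcidin and 4 PBS arrays. The authors deposited one value per probe set and array on a log2 scale, for which the submitters' processing notes name RMA and version 1.36.1 of affy. What defines a probe set, the genome build and the strand of the probes is not given in the sources used here. Values were used as deposited. Rows were named through the platform annotation and a RefSeq gene table by Entrez number (24015 of 24973 rows), keeping the brightest row per symbol, which left 24011 genes.

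limma 3.58.1 in R 4.3.3 (lmFit, eBayes) compared the groups, with Benjamini-Hochberg adjustment over all genes. Groups and numbers come from the sample titles. Across genes, same-numbered arrays deviated together from their group means, with correlations from 0.344 to 0.548 in the 4 pairs (bound 0.1) and from -0.356 to 0.124 between different numbers, so numbers were taken as pairs, and the replicate block is given as an alternative. The members, lists and alternatives were chosen with earlier results of these data known. Named genes were all family genes, the 4 smallest p-values in the processing and signalling lists, and Casp1, Nlrp3, Myd88 and Sigirr. For likeness, 5 genes each were named for 3 members. The fits were run on simulated data with independent noise and known changes larger than those of the members. Those runs do not show what could be detected at the size of the members' changes. The F test for the number, the olfactory receptor genes as a guide to background and the comparison with Tnf were added after the values had been seen. Promoters come from RefSeq tables of GRCm38.p6. A looser NF-kB motif was replaced by the consensus after its counts had been seen. Il1b overlaps the transcript Il1bos, whose name marks it as opposite strand, and their signals may not be separable. Figures used matplotlib 3.10.9. The number of arrays limits the precision.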

Additional observations from a re-analysis of the deposited data

Results flagged for a closer look

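Among 60 sets of 4 arrays (30 named genes in 2 groups), 7 held an array far from the other 3 by Dixon's gap test. Chance gives about 1 in 20 for genes picked without regard to their values. That rate need not hold here, since 4 genes of each pathway list were picked by their p-values. Leaving out an array that stood apart took none of these genes past the adjusted threshold for hepcidin in limma. The unadjusted p of Il36g was 0.0266 without Hepcidin array 2, against 0.126 on all arrays, and that of Tnip1 was 0.0895 without Hepcidin array 1, against 0.0314. In the family, Il18 read 6.62 on PBS array 1, against 7.32 to 7.42 on the other PBS arrays, and Il1r2 read 3.31 on PBS array 3, against 3.58 to 3.63. Il36g read 2.998 on Hepcidin array 2, against 3.35 to 3.37 on the other Hepcidin arrays.

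In the pathway lists, Hepcidin array 1 stood apart for Tnip1, at 9.11 against 8.68 to 8.71, and for Irak2, at 8.57 against 8.40 to 8.42. Map3k8 read 8.06 on Hepcidin array 2, against 8.23 to 8.26, and Tifa read 6.497 on PBS array 1, against 6.55 to 6.56. The arrays numbered 1 account for 4 of the 7.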

How the results depend on the processing

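No member passed the threshold in any of the 20 alternatives. Over all genes, limma called 1 gene with the replicate block, 5 with it as a random block, 1 with the block and without both arrays numbered 1, 3 among genes with a mean of at least 6 (a filter that leaves 3 of the 8 members), and 0 to 2 when single arrays were left out. Members at an unadjusted p under 0.05 numbered 0 to 1 when single arrays were left out, Il1b without Hepcidin array 4 and Il1r1 without PBS array 3. The block changed no call of a member. Members that differed between numbers (Il1a and Il1rn) numbered 0 without both arrays numbered 1 and 3 with either filter on low values and with trend and robust variance, and Il18bp passed in each of these 3. Small log2 changes turned sign, with the cause not tested. Without both arrays numbered 1, with or without the block, they were -0.025 for Il1rn, -0.039 for Il18bp, 0.029 for Il1r2, 0.029 for Il18r1, 0.0095 for Il18rap and 0.00096 for Casp1. Array weights gave -0.0023 for Il1rn, -0.0091 for Il18bp, 0.030 for Il1r2 and 0.016 for Il18r1. Median centring, quantile normalization and cyclic loess gave 0.015, 0.019 and 0.0094 for Il1r2 and 0.012, 0.011 and 0.0080 for Il18r1, and median centring gave 0.0064 for Il18. Leaving out single arrays gave -0.23 to 0.38 for Il1a, -0.12 to 0.18 for Il1rn, -0.20 to 0.072 for Il18, -0.086 to 0.17 for Il18bp, -0.074 to 0.082 for Il1r2, -0.056 to 0.11 for Il33, -0.0093 to 0.11 for Il36b, -0.18 to 0.068 for Il36rn, -0.14 to 0.40 for Il1rl2, -0.051 to 0.054 for Il18r1, -0.18 to 0.16 for Il18rap, -0.12 to 0.040 for Il1rapl1, -0.20 to 0.067 for Casp1 and -0.26 to 0.069 for Myd88. The change of Il1b stayed above 0 in each alternative that kept it, from 0.15 to 0.31. Signal near background limits what could be seen for Il1b, Il1r1 and Il1r2, and for Il1a on the arrays numbered 2 and 3.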
